A study of Rattus norvegicus with 30 samples.

Results

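Rat hippocampus was compared 1 h after kainate with 1 h after phosphate-buffered saline (PBS), on 3 arrays of each treatment. The hippocampus is a brain region for memory and a common site of seizures, and kainate excites its neurons through a class of glutamate receptors. The members are all probe sets (groups of probes against 1 transcript) that are not array controls and that lay above a signal of 35 on at least 3 of these 6 arrays. The rule kept 5313 of 8740 probe sets, which stand for 3201 genes, and left out 3427. On the dimmest of its 3 brightest arrays the weakest member reached 35.004, and the strongest probe set left out reached 34.98. Of the members, 4200 lay above the limit on all 6 arrays, 20 only on the kainate arrays and 20 only on the PBS arrays.

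The series has 30 Affymetrix arrays of hippocampal total RNA in 10 groups of 3, a kainate and a PBS group at each of 1, 6, 24, 72 and 240 h. Every comparison set kainate against the PBS arrays of the same time. Strain, age, dose, route and the course of the seizures are not stated in the labels. The labels number the replicates and do not say whether each array held the RNA of its own animal, so each p-value rests on array-to-array spread that may be technical.

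Strong synaptic input opens calcium channels and glutamate receptors, and calcium and kinase signals then act on transcription factors already bound at their target genes. These are the cyclic AMP response element binding protein at the cyclic AMP response element (CRE) and serum response factor at the CArG box. The first genes to respond, the immediate early genes, need no new protein synthesis. Some encode transcription factors such as Fos and Egr1, and others encode proteins that act at synapses or that switch the signal off again.

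The stretches before the start sites of 6 genes that rose at 1 h are shown because they hold copies of these elements and come from transcription factors (Nr4a1, Egr2, Junb), signalling inhibitors (Dusp1, Errfi1) and a synaptic protein (Nptx2). Each is the 250 bases before the start in RefSeq on build GRCr8, read 5′ to 3′ in the direction of transcription. Capitals mark the CRE TGACGTCA, its core TGACG on either strand (CGTCA where it reads on the other strand) and the CArG box of serum response factor.
Dusp1, chr10:17184603-17184852, plus strand: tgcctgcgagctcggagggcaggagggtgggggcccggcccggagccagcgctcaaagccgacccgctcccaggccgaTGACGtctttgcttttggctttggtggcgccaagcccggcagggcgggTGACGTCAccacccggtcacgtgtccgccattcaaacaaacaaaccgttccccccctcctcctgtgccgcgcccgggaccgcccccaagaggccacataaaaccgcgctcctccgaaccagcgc
Nr4a1, chr7:134259888-134260137, plus strand: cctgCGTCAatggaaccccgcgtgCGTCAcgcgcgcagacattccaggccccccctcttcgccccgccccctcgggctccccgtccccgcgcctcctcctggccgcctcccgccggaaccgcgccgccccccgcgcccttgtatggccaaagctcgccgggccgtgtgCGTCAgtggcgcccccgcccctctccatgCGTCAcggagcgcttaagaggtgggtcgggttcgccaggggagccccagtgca
Egr2, chr20:21054442-21054691, minus strand: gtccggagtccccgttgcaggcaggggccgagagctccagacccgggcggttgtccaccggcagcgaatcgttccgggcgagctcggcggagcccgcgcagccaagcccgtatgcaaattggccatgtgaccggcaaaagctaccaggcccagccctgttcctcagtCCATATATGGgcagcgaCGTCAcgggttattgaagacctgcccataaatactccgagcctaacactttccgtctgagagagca
Errfi1, chr5:166606591-166606840, plus strand: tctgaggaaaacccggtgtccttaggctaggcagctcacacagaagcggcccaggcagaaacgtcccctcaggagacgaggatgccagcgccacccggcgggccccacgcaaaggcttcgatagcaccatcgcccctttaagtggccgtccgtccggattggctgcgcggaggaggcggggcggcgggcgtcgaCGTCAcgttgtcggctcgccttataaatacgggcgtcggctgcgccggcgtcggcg
Junb, chr19:40080876-40081125, plus strand: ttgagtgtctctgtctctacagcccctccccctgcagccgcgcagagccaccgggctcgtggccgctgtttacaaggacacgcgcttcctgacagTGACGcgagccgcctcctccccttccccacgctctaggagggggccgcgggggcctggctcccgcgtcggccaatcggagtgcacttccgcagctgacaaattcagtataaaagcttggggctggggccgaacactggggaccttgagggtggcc
Nptx2, chr12:15162046-15162295, minus strand: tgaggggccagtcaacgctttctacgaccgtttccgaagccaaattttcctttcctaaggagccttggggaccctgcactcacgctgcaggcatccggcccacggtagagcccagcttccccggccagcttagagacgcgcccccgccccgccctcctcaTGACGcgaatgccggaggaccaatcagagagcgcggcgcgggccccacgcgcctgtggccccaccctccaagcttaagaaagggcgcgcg

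The Dusp1 stretch holds 1 full CRE, 124 to 117 bases before the start, and 3 cores, of which the full element contains 2 that overlap each other. The Nr4a1 stretch holds 4 cores, and the Egr2 stretch holds a CArG box and 1 core close to each other. Errfi1, Junb and Nptx2 have 1 core each. Of the 16 genes that rose at 1 h, 12 were in the RefSeq promoter table. A core stood before 9 of these 12 (Bdnf, Dusp1, Egr1, Egr2, Errfi1, Junb, Nptx2, Nr4a1 and Nr4a2), against 18.2% of all 33469 stretches of the same length and 29% of the 2638 tested genes in the table. A gene counted when any of its listed starts held the element, and Bdnf has 6 starts in the table.

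The full CRE stood before 1 of the 12 genes (2.58% of tested genes, 1.59% of all stretches). The CArG box stood before 2, Egr1 and Egr2 (1.59% and 1.5%). The AP-1 site TGANTCA stood before Bdnf alone (4.97% and 6.34%), the TATA box TATAAA before Errfi1 and Junb (6.41% and 8.06%), and the Egr site GCGTGGGCG before none of the 12 (1.02% and 0.478%). Both strands were searched for each motif except the TATA box, which was searched in the direction of transcription only. A match is a match of letters and no measure of binding. In the 150 bases before the start, 8 of the 12 genes held a core, against 21.3% of tested genes. Arc, Fos, Jun and Nr4a3 were not matched in the table.

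At 1 h, 40 of the 5313 probe sets differed between kainate and PBS (limma, Benjamini-Hochberg adjusted p below 0.05), which is 0.753% of those tested. Of these, 37 were higher after kainate (0.696%) and 3 lower (0.0565%). Without adjustment, 302 had a p below 0.05, 146 higher and 156 lower. In bulk tissue a lower signal from fewer cells and from less RNA per cell cannot be told apart. The median log2 change over all probe sets was -0.04.

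The 37 risen probe sets include 27 with 1 gene name, which stand for 16 genes. Of the 16 genes, 9 were immediate early transcription factors: Egr1, Egr2, Fos, Jun, Junb, Klf4, Nr4a1, Nr4a2 and Nr4a3. The other 7 were Arc, Bdnf, Dusp1, Errfi1, Homer1, Nptx2 and Rasl11b. Map2 and Triobp were the named genes that fell. Of the 3201 genes, 16 passed by their brightest probe set (0.5%), 15 of them higher (0.469%) and 1 lower (0.0312%), and Homer1 and Map2 passed by another probe set only.

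Arc, a cytoskeleton-associated protein that is made near active synapses and takes part in removing AMPA receptors, had the highest signal of the risen genes outside the transcription factors. Its signal was 393, 588 and 403 on the PBS arrays and 1983, 1913 and 1963 on the kainate arrays. The kainate arrays lay close together and far above every PBS array, among which replicate 2 was the highest. The log2 change was 2.11 ± 0.18 (SE, 3 arrays in each group, adjusted p = 4.31e-05 in limma).

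Nptx2, a secreted pentraxin that gathers AMPA receptors at excitatory synapses, had signals of 213, 277 and 322 after PBS and 652, 533 and 481 after kainate. All kainate arrays lay above all PBS arrays, with replicate 1 the highest. The log2 change was 1.05 ± 0.21 (SE, limma adjusted p = 0.0423). The other of its 2 probe sets was higher by 1.80 ± 0.41 on the log2 scale and did not pass (adjusted p = 0.107).

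Bdnf, the neurotrophin that signals through TrkB and is released by active neurons, had signals of 102, 85.7 and 103 after PBS and 241, 179 and 224 after kainate. The groups do not overlap. Its log2 change was 1.14 ± 0.21 (SE, limma adjusted p = 0.0265), and 1 of its 6 tested probe sets passed. The other 5 gave log2 changes between 0.11 and 1.42, all positive, and the groups overlapped for 3 of them. The one at 1.42 was a member through its kainate arrays only. The gene is known for several promoters with exons of their own, and the files do not say which transcripts each probe set reads.

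Homer1, a scaffold that ties metabotropic glutamate receptors to calcium stores, gave opposite signs in different probe sets. The probe set AB003726_at read 158, 187 and 118 after PBS and 411, 697 and 385 after kainate. The lowest kainate array was above the highest PBS array, and kainate replicate 2 stood above the others. This is a log2 change of 1.66 ± 0.26 (SE, limma adjusted p = 0.00674).

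The other 4 Homer1 probe sets did not pass, and each had a negative log2 change, of -0.72, -0.46, -0.29 and -0.16. The brightest of the 5, with a mean signal of 484 after PBS and 352 after kainate, gave -0.46 ± 0.19 (adjusted p = 0.785). Its groups do not overlap, and the same is true of 2 of the other 3, where 10.6% of all probe sets have groups apart. In a fit over all 30 arrays the probe set at -0.72, AF093268_s_at, passed as lower (limma adjusted p = 0.0251). The rise in Homer1 therefore refers to what AB003726_at reads, and not to every transcript of the gene.

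Of the activity-regulated effector genes, 3 of 19 measured members rose by their brightest probe set (Arc, Bdnf and Nptx2) and 0 fell. When any probe set is counted, 4 rose. Over all genes 0.469% rose by the brightest probe set, and this list was chosen with earlier results of these data known. The median log2 change of the list was 0.41, against -0.03 over all genes. Members that did not pass were Ptgs2, the inducible cyclooxygenase, at 1.06 ± 0.27 (SE, limma adjusted p = 0.194), and Plat, tissue plasminogen activator, at 0.83 ± 0.23 (adjusted p = 0.278). Ptgs2 signals were 78.3, 65.9 and 98.1 after PBS and 200.1, 117 and 197 after kainate, with no overlap. Scg2 and Vgf, granule proteins cut into neuropeptides, were at 0.66 and 0.41, and Nrn1, a promoter of neurite growth, at 0.52, none of them passing. Syt4, Gadd45a and Adcyap1 lay between 0.05 and 0.11.

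Dusp1, a nuclear phosphatase that switches off MAP kinases, was higher in 3 of its 3 probe sets, of which 1 was a member through its kainate arrays only. The brightest read 16.7, 92.9 and 50.3 after PBS and 393, 350 and 333 after kainate. The PBS arrays were spread widely and replicate 2 was again the highest, and the kainate arrays were close together well above them. The log2 change was 3.07 ± 0.46 (SE, limma adjusted p = 0.00551). Of the other 2 probe sets, S74351_s_at read 30.1, 38.9 and 40.9 after PBS and gave 2.96 ± 0.23. S81478_s_at lay below the limit of 35 on all PBS arrays, so as a member its groups had to lie apart, and it lends no support.

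Errfi1, an inhibitor that binds the active epidermal growth factor receptor, read 81.8, 95.8 and 120.1 after PBS and 288, 218 and 234 after kainate. Each kainate array was above each PBS array. Its log2 change was 1.32 ± 0.22 (SE, limma adjusted p = 0.0125). Without PBS replicate 1 or without kainate replicate 1 it no longer passed.

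Of 16 measured feedback inhibitors of signalling, Dusp1 and Errfi1 rose and 0 fell, where 0.469% of all genes rose. The list, also chosen with earlier results of these data known, had a median log2 change of 0.20. Dusp5 and Dusp6, phosphatases of the MAP kinase ERK, were at 0.66 ± 0.19 and 0.58 ± 0.21 without passing (adjusted p = 0.337 and 0.688). The Dusp5 signal was 148 ± 3.06 (SD) after PBS and 235 ± 24.2 after kainate. Nfkbia, the inhibitor of NF-kappaB, was at 0.38, Ptpn5, a neuronal tyrosine phosphatase, at 0.22, and Rgs4, which shortens G protein signals, at -0.20. Dusp1 and Errfi1 are also the 2 of 12 glucocorticoid-responsive genes that rose, so that list adds no further risen gene. In that list Sgk1, a kinase induced by glucocorticoids, was at 0.52 (adjusted p = 0.783) and Hsd11b1, which regenerates active glucocorticoid, at 0.51 (adjusted p = 0.783).

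Rasl11b, a small GTPase of the Ras family, rose in 2 of its 2 probe sets. The brighter read 106, 125 and 121 after PBS and 272, 248 and 243 after kainate, with narrow groups far apart. The log2 change was 1.12 ± 0.19 (SE, limma adjusted p = 0.0157), and the other probe set gave 1.08 ± 0.22 (adjusted p = 0.0493). In a fit over all 30 arrays the brighter one did not pass (adjusted p = 0.307) and the other did (0.0236). Rasl11b also lost its call without PBS replicate 1, kainate replicate 1 or kainate replicate 2.

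Among the 18 measured immediate early transcription factors 9 rose and 0 fell, where 0.469% of all genes rose. This list, also chosen with earlier results of these data known, had a median log2 change of 1.08. Junb, a subunit of AP-1, had the smallest adjusted p of all probe sets (2.26e-05). It read 118, 149.5 and 103 after PBS and 892, 869 and 854 after kainate, a log2 change of 2.84 ± 0.19 (SE, limma). The kainate arrays differed from each other by much less than from any PBS array.

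Egr2, a zinc finger factor, read 32.2, 71.3 and 37.9 after PBS and 516, 427 and 415 after kainate. Egr1, its relative and the brightest of the risen genes, read 1166, 1268 and 1237 after PBS and 3619, 2645 and 3552 after kainate. In both genes the groups were far apart, and 3 of 4 Egr1 probe sets passed.

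Fos read 252, 446 and 229 after PBS and 1483, 1115 and 1505 after kainate, and passed in 3 of 3 probe sets. Nr4a1, an orphan nuclear receptor, read 122, 359.7 and 176 after PBS and 1378, 1458 and 2221 after kainate. PBS replicate 2 was the highest control in both genes and stayed below every kainate array.

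Nr4a2, of the same receptor family as Nr4a1, read 123, 139 and 109 after PBS and 596, 329 and 562 after kainate, with kainate replicate 2 the lowest and still above all PBS arrays. Its log2 change was 1.96 ± 0.24 (SE, limma adjusted p = 0.00108). Its relative Nr4a3 rose by 1.40 ± 0.20 (adjusted p = 0.00328), and both genes passed in 2 of 2 probe sets. Nr4a3 read 196, 226 and 209 after PBS and 678, 559.8 and 447 after kainate, with no overlap.

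Klf4, a zinc finger factor known from stem cells and neuronal growth, read 41.5, 64.9 and 39.2 after PBS and 160, 124 and 105 after kainate, at the dim end of the risen genes. Jun, the partner of Fos in AP-1, read 194, 306 and 318 after PBS and 577, 486 and 681 after kainate. Groups do not overlap for either gene, and Jun and Klf4 passed by little (limma adjusted p = 0.0469 and 0.0466). Of 4 Jun probe sets 1 passed, and the other 3 gave log2 changes of 0.85, 0.48 and -0.08.

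Of the 9 factors that did not pass, Cebpb, which acts in inflammation and metabolism, was at 1.04 ± 0.26 (SE, limma adjusted p = 0.179) and Atf3, a stress-induced factor, at 0.95 ± 0.30 (adjusted p = 0.499). Crem, whose product ICER represses CRE genes, was at 0.59 and Egr4 at 0.45, and Klf6 and Klf10 at 0.38 and 0.20. Jund was at -0.04, Cebpd at -0.11 and Fosl2 at -0.36. A dimmer probe set of Cebpd gave 1.31 without passing, and one of Crem was at or near the floor after PBS, with 2 of 3 arrays below it.

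Of the 37 risen probe sets, 10 have no gene name or several in the platform annotation. One of them read 14.1, 30.5 and 3.19 after PBS, of which 1 lay below the floor of 10.85 under which values were not told apart, and 400.3, 230.3 and 395 after kainate. It passed the limit of 35 through the kainate arrays only, so its groups had to lie apart. Its fitted log2 change of 4.31 is given with no weight on its size. The bright probe set M92433exon#1-2_s_at read 145, 205 and 155 after PBS and 1091, 830.4 and 1051 after kainate (log2 change 2.56 ± 0.20, adjusted p = 3.47e-05). Its PBS arrays were all above the limit and well below the kainate arrays.

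The probe sets M60921_g_at and M60921_at, which share the first part of their name, rose by 2.60 ± 0.31 and 1.18 ± 0.19 on the log2 scale (limma adjusted p = 8.03e-04 and 0.00879). A probe set annotated to Mt1, Ttr and a further gene read 419, 296 and 305 after PBS and 685, 676 and 655 after kainate, a log2 change of 1.00 ± 0.18 (adjusted p = 0.0244). It is not counted for any of these genes.

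Map2, a microtubule-associated protein of dendrites, was lower in 1 of 4 probe sets. It read 137, 185 and 187 after PBS and 87.3, 71.7 and 69.8 after kainate, with every kainate array below every PBS array. The log2 change was -1.15 ± 0.23 (SE, limma adjusted p = 0.0447). Of the other Map2 probe sets 2 gave -0.81 and -0.81 without passing, and the brightest gave 0.24 ± 0.17, with means of 831 after PBS and 988 after kainate.

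Triobp, a protein that binds and bundles actin, read 92.1, 135.5 and 91.9 after PBS and 29.99, 39.4 and 43.5 after kainate. The kainate arrays lay near the limit of 35 for a member and below all PBS arrays. The log2 change was -1.49 ± 0.30 (SE, limma adjusted p = 0.0466). Triobp and Map2 lost their calls when any 1 of the 6 arrays was left out. In the fit over 30 arrays Map2 passed (adjusted p = 0.0266) and Triobp did not (0.123).

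The remaining lower probe set, rc_AI230256_at, has no gene name. It read 941, 639 and 649 after PBS and 350.2, 417 and 372 after kainate, with PBS replicate 1 well above the others (log2 change -0.95 ± 0.19 SE, limma adjusted p = 0.0483). In a fit over all 30 arrays 68 probe sets passed (1.28%), 14 lower (0.264%) and 54 higher (1.02%). By their brightest probe set 26 genes passed (0.812%), 21 higher (0.656%) and 5 lower (0.156%). Counting any probe set, 9 named genes were lower that did not pass in the 6 arrays of 1 h. Apart from the Homer1 probe set above, these are Acadm, Col5a1, Fdft1, Ndst1, Rpl21, Sfxn1, Tap1, Txnrd2 and Ube2g1. The brightest probe sets of Fdft1 and Rpl21 were not lower, with log2 changes of 0.00 and 0.10. For the Txnrd2 probe set that passed the groups overlapped, and Acadm and this Txnrd2 probe set each had 1 kainate array below the floor. Acadm was a member through its PBS arrays only, so its groups had to lie apart, and its call lends no support to a fall. On 1 simulated data set the fit over 30 arrays made 15.4% false calls, against 5.96% for the 6 arrays of 1 h. That set had 200 changed probe sets, and these shares need not hold for the calls here.

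That fit also called 9 named genes higher that missed the threshold in the 6 arrays. Ifrd1, a transcriptional coregulator, read 79.7, 106 and 65.5 after PBS and 240.0, 242 and 142 after kainate (log2 change 1.30 ± 0.27 SE, limma adjusted p = 0.0557 in 6 arrays and 0.0019 in 30). Ccn1, a secreted matrix protein induced by growth factors, was at 2.14 ± 0.53 (adjusted p = 0.179 and 0.0048), with 2 of 3 PBS arrays below the floor. The others were Cebpb, Cebpd, Crem, Dusp5, Plat, Ppp1r15a, which restarts translation after stress, and Stmn4, a stathmin that acts on microtubules. The Ccn1 probe set and the Crem probe set called here, U04835_at, were members through their kainate arrays only. For Ccn1 and Crem the groups therefore had to lie apart, and these calls lend no support to a rise.

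Further genes had groups apart without passing. Mapk7, Mpdz and Odf2 lay above the limit of 35 on the kainate arrays only, so their gaps follow from the filter. Shank2, on the lower side, lay above it on the PBS arrays only, and its gap follows from the filter too. Mapk7, the kinase ERK5, read 33.5, 30.3 and 30.9 after PBS and 133, 76.8 and 67.9 after kainate, a log2 change of 1.49 ± 0.34 (SE, limma adjusted p = 0.113). Max, the partner of Myc, was at 1.24 ± 0.45 (adjusted p = 0.706), and Slc13a2, a dicarboxylate transporter, at 1.14 ± 0.37 (0.514). Irf3, an interferon regulatory factor, was at 0.95, Mpdz, a scaffold with PDZ domains, at 0.87, Odf2, a centrosomal protein, at 0.79 and Gata4 at 0.74. On the lower side were Cldn3, a tight junction protein, at -1.82 ± 0.48 (adjusted p = 0.227), Rpl30, a ribosomal protein, at -1.56 ± 0.55 (0.643) and Chrna4, a nicotinic receptor subunit, at -1.35 ± 0.50 (0.715). Tbc1d2b, Ctrc, Cyp4f6, Shank2, Srebf1, Igf2r and Sfmbt1 lay between -1.34 and -0.94. Groups did not overlap for 564 probe sets (10.6%), of which 258 were higher (4.86%) and 306 lower (5.76%), so a gap between the groups alone is common here.

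The counts of the following lists stand against 0.5% of all genes passing, so that 0 in a list of this size is near the background and no result about the list. Of 30 measured glutamate receptors and transporters 0 passed by their brightest probe set and Homer1 by another, and their log2 changes ran from -0.66 to 0.33 around a median of -0.07. Gria1 and Gria2, AMPA receptor subunits, were at -0.22 and -0.27, Grik2, a kainate receptor subunit, at -0.06 and Grin1, of the NMDA receptor, at 0.29. Slc1a3, a glutamate transporter of astrocytes, had a signal of 1930 ± 129 (SD) after PBS and 1552 ± 171 after kainate, a log2 change of -0.32 ± 0.14 (SE, limma adjusted p = 0.854).

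Of 40 ion channels 0 passed, and their median log2 change was -0.18, the lowest of the 28 lists. Kcnc2, a potassium channel of fast-spiking neurons, was at -0.72 ± 0.23 (SE, limma adjusted p = 0.502), Clcn3 at -0.48 and Cacna2d1, a calcium channel subunit, at 0.48. Of 20 genes of GABA receptors, synthesis and transport 0 passed, and Gabra5, the alpha 5 subunit, was at -0.40 (adjusted p = 0.878). Of 28 genes of vesicle release 0 passed, and Cplx2, complexin 2, had a signal of 374 ± 73.2 (SD) after PBS and 217 ± 12.2 after kainate (log2 change -0.77 ± 0.20, adjusted p = 0.215).

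Of 30 neuropeptides and growth factors Bdnf alone rose, and the median was 0.13. Npy, Sst and Penk, which encode peptides of interneurons and granule cells, were at 0.13, 0.13 and 0.22, and Pdyn, the dynorphin precursor, at -0.18. Of 14 cytokine and inflammation genes 0 passed. They ran from Lif, a cytokine of the interleukin 6 family, at -0.94 to Ptgs2 at 1.06, with Ccl2 at 0.42, Il1a at -0.04 and Icam1 at -0.08. Of 23 heat shock and endoplasmic reticulum stress genes 0 passed, and Calr, the chaperone calreticulin, had a signal of 876 ± 135 (SD) after PBS and 1228 ± 145 after kainate (log2 change 0.49 ± 0.17, limma adjusted p = 0.592). The medians of the lists ran from -0.18 to 1.08. In 20 of the 28 lists no probe set of any member passed, where the background is 0.753% of probe sets.

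The tissue markers gave the following levels. Snap25, a synaptic vesicle fusion protein of neurons, had a signal of 1108 to 1430 after PBS and 892 to 1190 after kainate in its brightest probe set, and Gad1, the GABA enzyme of interneurons, 648 to 744 and 593 to 717. Mbp of myelin lay between 3790 and 5058 on all 6 arrays and Hbb of blood between 1799 and 2804. Camk2a was dim (37.9 to 56.5 in its tested probe set), and Itgam of microglia was not above the limit (14.2 to 25.4). Gfap was not matched to a probe set with 1 gene.

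The summed signal of 19 neuron markers was 22548 to 23574 after PBS and 23655 to 24731 after kainate, that of 14 astrocyte markers 10934 to 11955 and 11804 to 11883, and that of 9 microglia markers 1255 to 1425 and 1248 to 1530. The 13 interneuron markers summed to 6024 to 6263 and 5745 to 6766, the 12 myelin genes to 7503 to 9444 and 7970 to 8938, and the 12 blood and endothelial markers to 4263 to 6011 and 4309 to 5513. Of the marker lists, Map2 among the neuron markers was the only member with a passing probe set. Ttr, which marks choroid plexus, varied from 104 to 1927 after PBS and from 289 to 4645 after kainate, with kainate replicate 1 the highest. The summed choroid plexus list was 2047 to 3856 and 2103 to 6678, and its part in the results was not tested.

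Between arrays of 1 h the correlation across probe sets was 0.927 to 0.945 within a treatment and 0.922 to 0.94 between treatments. The 3′ to 5′ log2 ratio of beta-actin, a sign of RNA quality, was higher by 0.27 after kainate (exact two-sided permutation p = 0.2), that of Gapdh by 0.02 (exact p = 0.9) and that of hexokinase by 0.22 (exact p = 0.5). The spike-in transcripts BioC and CreX differed by 0.42 (exact p = 0.2) and 0.08 (exact p = 0.8), and the log2 array median by -0.05 (exact p = 0.5). With 3 against 3 arrays the smallest p is 0.1. PBS replicate 2 was the highest control at 29 of the 37 risen probe sets, against 39.6% of all probe sets, and kainate replicate 1 was the highest kainate array at 22 of them. Without PBS replicate 2, 35 probe sets passed, 31 of them among the 40. Without kainate replicate 1, 28 passed, 27 of them among the 40, and Bdnf, Errfi1, Jun, Klf4, Nptx2 and Rasl11b were not called. Bdnf, Jun, Klf4 and Nptx2 each lost the call in other fits that left out 1 array too. Bdnf, Jun and Klf4 passed in 1 of the 6 such fits and Nptx2 in 2.

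The later arrays are separate from those of 1 h and have PBS groups of their own. At 6 h, 35 of the 37 risen probe sets were again higher after kainate, where 3.69% of all probe sets were higher, and all 16 risen genes passed. None of the 37 was lower, where 1.17% of all probe sets were. The median log2 change of the 37 was 1.76 at 6 h, against -0.10 over all probe sets. The exceptions were M60921_at, at -0.20, and another unnamed probe set, at 0.69. At 6 h the log2 change was 3.41 for Dusp1, 3.04 for Errfi1, 2.99 for Junb, 2.91 for Rasl11b and 2.37 for Nr4a1, and about 1 for Klf4 (0.99), Nr4a3 (0.99) and Nr4a2 (1.08). Map2 and Triobp were at -0.09 and -0.05 and did not pass.

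At 24 h, 2 of the 37 probe sets were higher (2.58% of all were) and 5 were lower (2.62% of all were). Nptx2 was 2.49-fold higher (limma adjusted p = 0.0021) and Bdnf 1.81-fold (adjusted p = 0.0474). Bdnf lost this call whichever of the 6 arrays of 24 h was left out (adjusted p = 0.0615 to 0.138) and with the replicate number as a block (0.0634), and Nptx2 kept it in each. The lower genes were Arc, with a log2 change of -0.70, Egr1 with -0.64 and Nr4a3 with -1.10 (adjusted p = 0.0201, 0.0201 and 0.0101). Of the 3 probe sets lower at 1 h, 1 was lower at 24 h too. This was the unnamed rc_AI230256_at (log2 change -1.20 ± 0.15 SE, limma adjusted p = 0.0021). At 72 and 240 h none of the 37 passed, and no probe set of the 5313 did, where 833 and 424 had an unadjusted p below 0.05. The median log2 change of the 37 was -0.38 at 72 h and -0.03 at 240 h.

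The change from 1 h to 6 h was tested directly as the difference of the kainate effects. The difference is signed, so larger means more positive. Of 5313 probe sets 29 had a larger effect at 6 h (0.546%) and 3 a smaller one (0.0565%). Among the 40 that passed at 1 h, 6 were larger and 1 smaller. The 40 were chosen on their 1 h effects, which also enter this difference. Some movement back from the 1 h value can therefore follow from the choice. The larger ones among the named genes were Bdnf, Rasl11b, Errfi1, Nptx2 and Homer1 (AB003726_at), none of them a transcription factor. The unnamed rc_AI230256_at was also larger and went from -0.95 to 0.56. Its PBS groups differed as well, with a mean signal of 743 ± 172 (SD) at 1 h and 372 ± 91.45 at 6 h. Its kainate means were 380 ± 34.2 and 540 ± 43.6. Bdnf went from a log2 change of 1.14 at 1 h to 3.05 at 6 h, and Nptx2 from 1.05 to 2.77. Homer1 went from 1.66 to 3.25, with a mean signal of 1391 ± 117 (SD) after kainate and 147 ± 23.5 after PBS at 6 h.

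For Rasl11b the PBS groups differed as well, with a mean signal of 117 ± 10.02 (SD) at 1 h and 24.1 ± 2.98 at 6 h, while the kainate means were 254 ± 15.8 and 185 ± 45.7. Its other probe set went from 1.08 to 1.16, a difference of 0.07 ± 0.29 (SE, limma adjusted p = 0.959). For Errfi1 the kainate mean was 246 ± 36.5 at 1 h and 516 ± 68.7 at 6 h. The transcription factors did not pass this test. Egr2 went from 3.35 to 2.25, a difference of -1.10 ± 0.40 (adjusted p = 0.364), and Fos from 2.2 to 2.55, a difference of 0.35 ± 0.30 (adjusted p = 0.766). Arc went from 2.11 to 1.86 and Dusp1 from 3.07 to 3.41, neither of them passing.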

How the data were processed

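Total RNA of rat hippocampus was measured on Affymetrix arrays. The authors deposited linear intensity values for 8799 probe sets, 59 of them array controls. The step from scan to intensity is not given in the sources read. The deposited columns already had 2% trimmed means of 150.1 to 150.2. Columns were set to 1 shared trimmed mean, values were floored at the 20th percentile (signal 10.85, log2 3.44), and log2 was taken, so fold changes of dim probe sets are understated. The number of arrays limits the precision.

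Kainate was compared with PBS in limma 3.58.1 (R 4.3.3) on the 6 arrays of 1 h, with an intensity trend, 4 residual and 8.11 prior degrees of freedom, and Benjamini-Hochberg adjustment over 5313 probe sets at 0.05. A fit over all 30 arrays was an alternative, because it made more false calls in simulation. In 1 run with 200 of 5313 probe sets changed it made 15.4% false calls, against 5.96% for the 6 arrays. The 6-array fit recovered 90.7% of changes of log2 2, and 48.4% of those changes of log2 1 that were fitted with the right sign. Each later time was fitted alone, and 6 h was compared with 1 h on the 12 arrays of both.

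Gene names came from the platform annotation. Of 8740 probe sets 7006 had 1 gene, 308 several and 1426 none, and 6985 matched a current gene identifier. Among the tested ones these numbers were 4425, 203 and 685. The probe set with the highest mean log2 signal stood for its gene. Motifs were searched in RefSeq promoters on GRCr8.

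The members, the 28 gene lists and the tests were chosen with earlier results of these data known. Lists are described by counts and medians, with no test of a list. The text names genes that passed, genes that passed by another probe set or only over 30 arrays, the 10 largest rises and the 10 largest falls that did not pass, among genes with groups apart and no array at the floor, and list members. Further members of each list were named after their values were seen. The alternatives were other samples in the fit, a replicate block, quantile normalization, other floors, filters and moderation, the mean of a gene's probe sets, and leaving out each array. Same-numbered kainate and PBS arrays deviated together with correlations of -0.018, 0.202 and 0.114. For arrays with different numbers the correlations ran from -0.173 to 0.073, so 0.202 and 0.114 lay above all of these. Deviations were taken from each group's own mean, so these correlations depend on each other and cannot decide whether the numbers are pairs. The main fit did not take the numbers as pairs, and the replicate block was the alternative that did. Tables were written in Python 3.11.15 using pandas 2.3.3.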

Additional observations from a re-analysis of the deposited data

Results flagged for a closer look

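For 7 of the 40 probe sets that passed at 1 h, the kainate effect at 6 h differed from that at 1 h by the test of the difference itself (limma, adjusted over all probe sets). On the signed log2 scale the effect was higher at 6 h by 1.91 for Bdnf (adjusted p = 0.00134), by 1.80 for Rasl11b (0.00775), by 1.72 for Nptx2 (0.00278), by 1.72 for Errfi1 (0.0186), by 1.59 for Homer1 (0.032) and by 1.51 for the unnamed rc_AI230256_at (0.0182). That probe set was lower at 1 h and had a positive change that did not pass at 6 h. For the unnamed M60921_at the effect at 6 h minus that at 1 h was -1.38 (adjusted p = 0.0204). For rc_AI230256_at and M60921_at the difference ran against the 1 h change on which they were chosen. Part of it can follow from that choice.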

How the results depend on the processing

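No named result changed sign, but this was largely fixed in advance. Fits that changed only the other samples, the filter or the moderation kept the same 1 h group means. Except for Txnrd2 the groups of each followed probe set lay apart, so leaving out 1 array could not turn the sign. Each result was followed on 1 probe set, and other probe sets of some genes, such as Homer1, Map2, Cebpd and Jun, had the opposite sign. Of 1386 alternative values for 79 named results, 1274 kept their side of the threshold, 82 lost the call and 30 gained it. Only the 18 genes with a passing probe set had a call to lose, so all 82 losses fell on these. The other named results had not passed and could only stay or gain. Over all 30 arrays 68 probe sets differed, 14 of them lower, and 26 genes, 5 lower, and 51 probe sets differed between 6 h and 1 h (32 as reported). Without a filter on low values 3 probe sets passed (3 higher, 0 lower) and 1 gene (1 higher, 0 lower). Without the intensity trend it was 18 (18 and 0) and 7 genes (7 and 0). Lower probe sets numbered 1 with quantile normalization, and 0 with the filter taken over 30 arrays, which also left 0 lower genes. Lower genes were 0 with the filter at signal 100 and when a gene's probe sets were averaged. With the replicate number as a block, 36 probe sets passed, 34 of them among the 40, with 0 lower and 0 genes lower, and 1 risen probe set was higher at 24 h (2 as reported). Leaving out 1 array gave 27 to 35 probe sets, 0 to 2 of them lower, 9 to 14 genes, 9 to 14 higher and 0 to 1 lower, 11 to 50 probe sets for the difference between 6 h and 1 h, and 1 risen probe set higher at 24 h in each of the 6 fits. Of the 18 genes with a passing probe set 10 kept the call whichever of the 6 arrays was dropped. They are Arc, Dusp1, Egr1, Egr2, Fos, Homer1, Junb, Nr4a1, Nr4a2 and Nr4a3. The causes of these changes were not tested. Signals near the floor limit what can be said of dim probe sets.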
